A study of Mus musculus with 4 samples.

Results

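Interferon response cells of day 11 gastruloids were defined here as cells with at least 2 UMIs of *Ifit3* and at least 2 UMIs of *Isg15*, among cells with at least 2000 UMIs and a mitochondrial share under 20%. They were 104 of 8730 such cells, or 1.19% (0.974 to 1.44%), out of 31330 barcodes in the whole series. These cells were therefore chosen by the levels of *Ifit3* and *Isg15*, and those levels are given below as a description. The gastruloids came from Zx1 mouse embryonic stem cells, labelled wild type, and were pooled, at least 8 per time point, at days 4, 5, 6 and 11. All had received a pulse of the Wnt agonist Chiron before day 4, cultures kept beyond day 4 were then given cardiogenic factors (bFGF, VEGF and ascorbic acid), and all were dissociated with trypsin. Each day is 1 single-cell library of 1 cell line, so no test across samples was possible and no p-value is given. Intervals are at 95%, come from counts of cells or UMIs and cover counting error only.

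Type I and type III interferons are secreted proteins that cells make after sensing foreign or misplaced nucleic acid. They bind receptors (Ifnar1 and Ifnar2 for type I) that signal through the kinases Jak1 and Tyk2 to a transcription factor complex that contains Stat2 and Irf9. This complex binds the interferon-stimulated response element, which carries repeats of GAAA, and turns on antiviral genes such as those of the IFIT and OAS families. *Isg15* encodes a ubiquitin-like protein that is attached to other proteins, and *Ifit3* a member of a family that acts on viral RNA.

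Promoter stretches of *Isg15*, *Ifit3* and *Ifit1* are given because letters of this element occur in them, together with that of *Bst2*, which encodes tetherin, a protein that holds budding virus at the cell surface. Capitals mark each match to the motif GAAA, any 2 bases, GAAA on either strand, overlapping matches included. The sequences are from RefSeq on build GRCm38.p6, read 5′ to 3′ on the strand of the gene, and none of the stretches overlaps an exon of GENCODE vM21.
Isg15, chr4:156200845-156200926, minus strand: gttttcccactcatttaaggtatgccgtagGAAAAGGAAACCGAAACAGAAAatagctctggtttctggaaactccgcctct
Ifit3, chr19:34583343-34583446, plus strand: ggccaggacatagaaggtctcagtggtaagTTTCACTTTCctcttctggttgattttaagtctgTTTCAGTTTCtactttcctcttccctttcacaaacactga
Ifit1, chr19:34640755-34640843, plus strand: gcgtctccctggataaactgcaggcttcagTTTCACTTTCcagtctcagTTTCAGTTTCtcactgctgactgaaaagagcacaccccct
Bst2, chr8:71537557-71537632, minus strand: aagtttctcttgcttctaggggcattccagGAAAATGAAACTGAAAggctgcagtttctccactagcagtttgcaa

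The match nearest the start lay 66 bases before it in *Isg15*, 122 in *Ifit3*, 85 in *Ifit1* and 124 in *Bst2*. *Isg15* had 3 overlapping matches and the other 3 genes had 2 each. The stretch of 104 bases shown for *Ifit3* is the same at all 104 positions in *Ifit3b*, a neighbouring copy of the gene. Reads of these copies could have been split or dropped in the authors' counting, so the level of *Ifit3* is uncertain to that extent. *Ifit3b* itself gave 106 UMIs in the interferon response cells and 90 in all other cells.

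The level of *Isg15* in the interferon response cells ran from 2 UMIs through a median of 9 to 104, and that of *Ifit3* from 2 through 4 to 30. In 53 of the 104 cells both genes stood at 4 UMIs or more, and 5 cells held exactly 2 UMIs of both. The 10 cells with most *Isg15* held 36.2% of its UMIs within the group. The interferon response cells held 64.7% of the *Ifit3* UMIs and 39.2% of the *Isg15* UMIs of all kept day 11 cells. Summed over cells, *Isg15* (ENSMUSG00000035692) stood at 621 CPM (its UMIs among all UMIs of the summed cells, scaled to a total of 1000000) against 16.7 CPM in the other 8626 cells. *Ifit3* (ENSMUSG00000074896) stood at 252 CPM against 2.38 CPM.

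Interferon response cells were deeper than the others, and the rule favours deep cells. They had 5893, 14124.5 and 117677 UMIs (lowest, median, highest), against 2000, 12037.5 and 176705 in the other cells, and their quartiles were 11101.5 and 32114.5 UMIs against 8873 and 18792. The mitochondrial share had a median of 3.15% against 2.37%, and ribosomal protein genes took 25.9% against 25.6% of UMIs. After every cell was thinned at random to 5000 UMIs, which left out 340 other cells and none of the 104, the median number of genes was 2018.5 against 1987. At that depth 37 of 8390 cells still met the rule. Of the 9584 day 11 barcodes 57 also occurred in another library, but none of the 104.

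The cells also carried interferon genes that the rule had not used. At 5000 UMIs per cell, the number of distinct genes with a UMI was counted over 63 other genes of the IFIT, OAS, ISG15 conjugation and antiviral effector lists. It was 2, 12 and 29 (lowest, median, highest) in the interferon response cells and 0, 2 and 19 in the other cells. At least 5 such genes were found in 100 of the 104 cells (96.2%) and in 13.1% of the others. The ranges overlap, and 51 of the other cells reached the median of the interferon response cells. Of those 51 cells, 24 were mesenchyme-like, 9 macrophage-like and 7 endothelial-like by the markers given below. The 63 genes include *Ifit3b*, the neighbouring copy of *Ifit3*, which is therefore not independent of the rule. *Ifit3b* had a UMI at this depth in 21.2% of the interferon response cells and 0.362% of the others.

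Cells just outside the rule also carried other interferon genes. Medians are again at 5000 UMIs per cell, which 18 of 19, 29 of 30, 60 of 60, 264 of 268 and 7581 of 7910 cells of the sets below reached. Those with 2 or more UMIs of *Ifit3* and 1 of *Isg15* (19 cells) had a median of 11 other interferon genes, and those with no *Isg15* (30 cells) a median of 9. Where *Ifit3* was at 1 UMI and *Isg15* at 2 or more (60 cells), the median was 7. With no *Ifit3* and 2 or more UMIs of *Isg15* (268 cells) it was 6, and with neither gene (7910 cells) it was 2. Just inside the rule, the 32 cells with exactly 2 UMIs of 1 or both genes had a median of 9. The summed level of *Ifit1*, which was no part of the rule, followed a similar order. It stood at 175 CPM in the interferon response cells, 146 and 158 CPM in the first 2 sets outside, 43.1 and 31.5 CPM in the next 2, and 1.93 CPM in cells with neither gene. Cells left out for too little *Isg15* thus had nearly as much *Ifit1* as those taken.

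**Figure D1:**
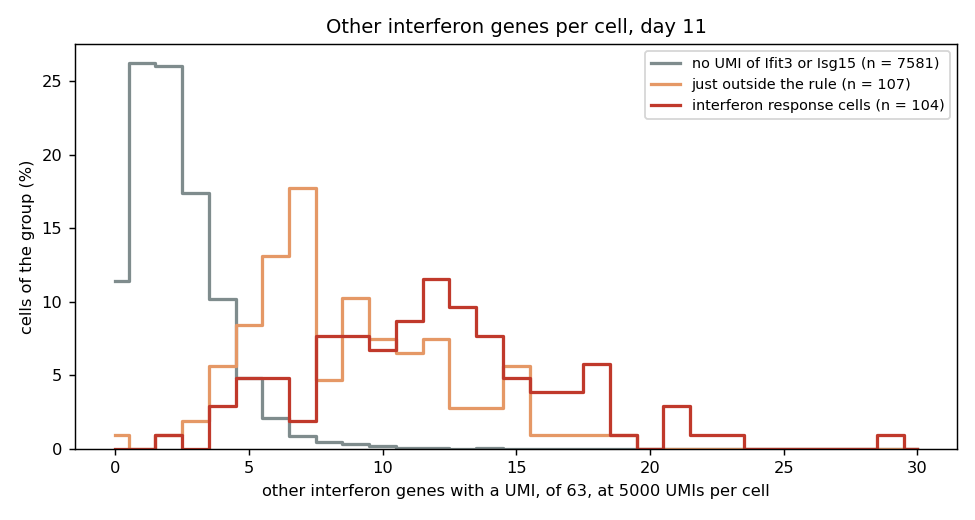
Share of cells (y axis, percent of the group) by the number of other interferon genes with a UMI, of 63, with every cell thinned to 5000 UMIs (x axis). The interferon response cells (red, 104 cells) have a median of 12 and reach 29, and cells with no UMI of either rule gene (grey, 7581 cells) have a median of 2; the 107 cells just outside the rule (orange: *Ifit3* at 2 or more with *Isg15* at 0 or 1, or *Ifit3* at 1 with *Isg15* at 2 or more) lie between them and overlap both.

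The response was found at day 11 and hardly earlier. Under the same rule 0 of 7202 cells were taken at day 4 (the exact interval reaches 0.0512%), 1 of 7408 at day 5 and 0 of 5850 at day 6 (up to 0.0630%), although those libraries were deeper, with medians of 25335, 28400.5 and 25581 UMIs per kept cell. The day 5 cell held 3 UMIs of *Ifit3*, 7 of *Isg15* and 27 of the 63 other genes. Over all kept cells, *Isg15* stood at 1.33, 1.14, 0.414 and 27.0 CPM at days 4, 5, 6 and 11. *Bst2* stood at 33.9, 21.4, 7.98 and 80.7 CPM on the same days. Levels of the receptor *Ifnar1* stayed between 17.8 and 23.7 CPM on the 4 days, and those of the kinase *Tyk2* between 3.64 and 5.23 CPM. The other type I receptor chain, *Ifnar2*, stood at 21.3, 36.01, 38.2 and 50.4 CPM at days 4, 5, 6 and 11. The kinase *Jak1* stood at 28.1, 27.3, 59.1 and 92.5 CPM on these days. At 5000 UMIs, 4.80% of day 4, 2.00% of day 5 (without that cell), 2.13% of day 6 and 13.1% of the other day 11 cells had at least 5 of the 63 genes. Day and library cannot be told apart here, and the day 11 matrix was made with another Cell Ranger version (6.0.1 in its header, 3.1.0 in the others).

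To ask which cell type genes these cells carried, each cell was placed by its markers in 1 of 10 classes, in no class or in a mixed set, using lists that include no interferon gene. A marker counted as present at 2 or more UMIs and 100 or more CPM of that cell, and a class needed 3 markers. Of the 104 cells, 83 fell in 1 class, and 6 of the 10 classes held at least 1 of them. Mesenchyme-like cells (collagen genes, *Pdgfra*, *Prrx1*, *Twist1*) were 43, or 41.3% (31.8 to 51.4%), about their share of 42.2% in the other cells. Endothelial-like cells (*Pecam1*, *Cdh5*, *Tie1*, *Emcn*) were 23, or 22.1% (14.6 to 31.3%), against 5.54% (5.07 to 6.05%). Macrophage-like cells (*C1qa*, *Csf1r*, *Tyrobp*, *Fcer1g*) were 12, or 11.5% (6.11 to 19.3%), against 0.649% (0.491 to 0.842%). Cardiomyocyte-like cells (*Myh6*, *Nkx2-5*, *Tnni3*) were only 1, or 0.962% (0.0243 to 5.24%), against 16.9% (16.1 to 17.7%).

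Neurons gave 3 cells and neural crest 1, and no cell came from the 482 neural progenitor-like, 123 skeletal muscle-like, 56 endoderm-like or 4 mesothelium-like cells. For the neural progenitor-like class the exact interval reaches 0.762% of its cells. Another 15 interferon response cells (14.4%) reached no class, against 15.3% of the other cells. Of these, 10 held 2 mesenchyme markers and 3 held 2 endothelial markers, 1 short of the limit, and these sets overlap. Counted once each, 3 cells held 2 endothelial markers and a further 8 held 2 mesenchyme markers. In the mesenchyme-like class 11 of the 43 cells stood at exactly 3 markers, while no endothelial-like or macrophage-like cell did. A further 6 cells (5.77%, against 4.60%) carried the markers of more than 1 class. They had a median of 57451.5 UMIs, and 3 of them paired macrophage markers with those of another class. Doublets were not called here, and whether these are doublets was not tested.

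Seen from the classes, 17.6% (9.47 to 28.8%) of the 68 macrophage-like cells, 4.59% (2.93 to 6.81%) of the 501 endothelial-like, 1.17% (0.845 to 1.57%) of the 3687 mesenchyme-like and 0.0684% (0.00173 to 0.381%) of the 1461 cardiomyocyte-like cells met the rule. Depth moved with the first of these values. Macrophage-like interferon response cells had 21538, 40566.5 and 86310 UMIs (lowest, median, highest), far above the median of 12882 in the mesenchyme-like ones. With every cell at 5000 UMIs, 1 of 64 macrophage-like (1.56%), 10 of 473 endothelial-like (2.11%) and 17 of 3654 mesenchyme-like cells (0.465%) met the rule, with 0 of 1353 cardiomyocyte-like cells. At equal depth the endothelial-like share was thus still larger than the mesenchyme-like share, on counts of 10 and 17 cells, while the macrophage-like value rested on 1 cell. At least 1 UMI of *Isg15* at that depth was found in 25% of macrophage-like, 14.2% of endothelial-like and 5.45% of mesenchyme-like cells. Of cell types with at most 1 selected cell, it was found in 2.14% of cardiomyocyte-like and 0.634% of neural progenitor-like cells, at median depths of 18965 and 14405 UMIs before thinning, but in 11.1% of the 27 neural crest-like cells.

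**Figure D2:**
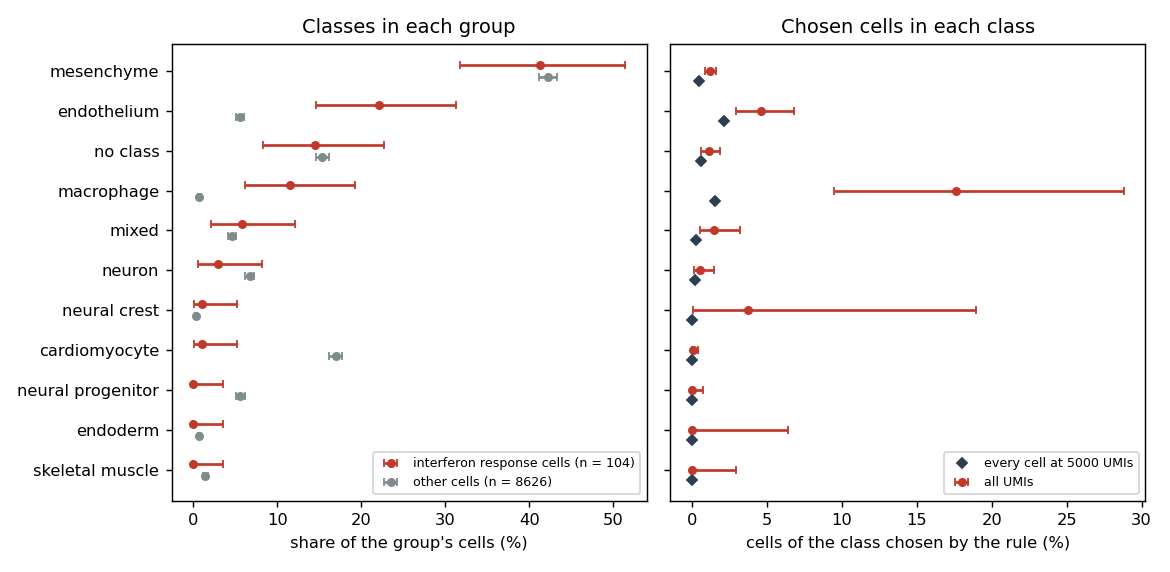
Left, share of the interferon response cells (red) and of the other day 11 cells (grey) in each marker class; right, share of each class that met the rule at full depth (red) and with every cell at 5000 UMIs (dark diamonds); both x axes are in percent, bars are exact 95% intervals and the 4 mesothelium-like cells are not drawn. Endothelial-like and macrophage-like cells take larger shares of the interferon response cells than of the others and cardiomyocyte-like cells a smaller one, and the macrophage-like rate falls from 17.6% to 1.56% at equal depth.

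Across all genes with 500 or more UMIs in the kept day 11 cells, the interferon response cells were compared with the other cells by the ratio of CPM plus 10, and a gene was called past a 2-fold ratio. Of 11362 genes 2.19% were higher and 1.82% lower by this measure, the 2 rule genes included among the higher. Of the 151 other genes of 10 interferon lists 69 passed the UMI limit, and 41 of them were higher and none lower. Their median ratio was 2.74, against 0.966 over all tested genes. The 69 are not the whole list, and *Rsad2*, *Trim30a*, *Slfn2*, *Gbp3* and *Psmb8* reached the limit only through the interferon response cells, a filter that favours higher genes. With the limit set on the other cells alone, a choice made after seeing the data, 36 of 64 list genes were higher and none lower, with a median ratio of 2.63, and 2.06% of 11317 genes were higher. The lists are described below by role, from ligands to effectors, and every ratio given without a further word is this ratio of CPM plus 10.

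No ligand was found. The 21 interferon genes in the feature list, among them *Ifnb1* and the *Ifna* family, gave 0 UMIs in the interferon response cells, which allows up to 1.18 CPM for the sum, and 5 UMIs in all other day 11 cells. Those were 3 UMIs of *Ifng*, the type II interferon, 1 of *Ifnk* and 1 of *Ifne*. At days 4, 5 and 6 the same genes gave 0, 19 and 3 UMIs.

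Receptor genes were expressed in both groups, and none of the 5 tested was past 2-fold. The type I receptor chains stood at 30.4 against 23.6 CPM (*Ifnar1*, ratio 1.20) and 84.9 against 49.8 CPM (*Ifnar2*, 1.59). The type II chains *Ifngr1* and *Ifngr2* had ratios of 1.62 and 1.59, and *Il10rb*, shared by type III interferons and interleukin-10, 1.70. *Ifnlr1*, the other type III chain, gave 0 UMIs in the 104 cells and 16 in all others. Outside the interferon response cells, *Ifnar1* stood at 73.2 CPM in macrophage-like, 34.7 CPM in endothelial-like, 30.9 CPM in mesenchyme-like and 12.8 CPM in cardiomyocyte-like cells. *Ifnar2* had the same order, at 122, 83.8, 59.5 and 33.4 CPM.

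The kinases were within 2-fold, while transcription factors of the pathway were higher. *Jak1*, *Jak2* and *Tyk2* had ratios of 1.69, 0.80 and 1.25. *Irf9*, the DNA-binding partner in the complex, stood at 63.2 against 11.9 CPM (ratio 3.34), and *Stat2* at 27.6 against 7.90 CPM (2.10). *Irf8*, a factor of myeloid cells, was also higher (2.70), and *Stat3*, *Irf1*, *Irf2* and *Irf3* were within 2-fold at 1.15, 1.75, 1.57 and 0.99. *Irf7*, which amplifies type I interferon production, was under the UMI limit, with 118 UMIs in 39 of the 104 cells and 154 UMIs in the other 8626 cells.

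Nucleic acid sensors showed 4 of 8 tested genes higher. *Ddx58*, the RIG-I sensor of viral RNA, had a ratio of 3.88, and its activating ubiquitin ligase *Trim25* 3.23. *Eif2ak2*, the kinase PKR that halts translation on double-stranded RNA, had 3.88 and *Aim2*, a sensor of DNA in the cytosol, 2.67. The adaptor *Mavs* (1.03), the kinase *Tbk1* (1.21), the adaptor *Ticam1* (1.14) and the DNA sensor *Cgas* (1.8) were within 2-fold. *Ifih1*, the sensor MDA5, was under the UMI limit, with 87 UMIs in 47 of the 104 cells against 209 in all others.

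Among the effectors, *Ifit1* stood at 175 against 5.14 CPM, a CPM ratio of 34.0 (30.2 to 38.3), and was found in 83 of the 104 cells. It was at 0, 2 and 48 UMIs (lowest, median, highest) per cell, so 21 of the cells chosen on *Ifit3* and *Isg15* showed none. At 5000 UMIs, 46.2% of the interferon response cells and 1.81% of the others had it. *Ifit2*, which missed the UMI limit, gave 58 UMIs against 412 in the other cells. In the OAS family of antiviral proteins, *Oasl2* was higher at 8.0 (85 of 104 cells). For conjugation of Isg15, the conjugating enzyme *Ube2l6* had a ratio of 2.59 and the protease *Usp18*, which removes Isg15 and also dampens receptor signalling, 5.84, while the activating enzyme *Uba7* was within 2-fold at 1.34.

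Of 23 other antiviral effectors tested, 17 were higher, or 14 of 20 with the UMI limit on the other cells alone, which leaves out *Rsad2*, *Trim30a* and *Slfn2*. *Bst2* stood at 764 against 68.8 CPM, a CPM ratio of 11.1 (10.6 to 11.7), and *Ifitm3*, which blocks viral entry at membranes, at 1494 against 168 CPM, 8.89 (8.59 to 9.20). Each was present in 103 of the 104 cells, at medians of 13 and 25 UMIs per cell. *Rtp4*, an interferon-induced chaperone of membrane receptors, had a ratio of 9.26, *Xaf1* 7.44 and the viperin gene *Rsad2* 6.57. *Rsad2* was found in 45 cells only, at up to 34 UMIs in 1 cell. Further ratios were 7.96 for *Slfn2*, 7.29 for *Lgals9*, 6.48 for *Trim30a*, 6.27 for *Ifi44*, 5.49 for *Slfn5*, 4.94 for *Ifi35*, 4.04 for *Zc3hav1*, 3.92 for *Samhd1*, 3.88 for *Parp9*, 3.48 for *Lgals3bp*, 3.11 for *Parp12* and 2.06 for *Ifi27*. *Ifitm1* and *Ifitm2*, neighbours of *Ifitm3*, were within 2-fold at 0.93 and 1.38, as were *Adar*, *Znfx1*, *Pnpt1* and *Plscr1* at 1.32 to 1.94. The IFITM, Slfn, Gbp and H2 genes belong to families of near copies, between which the counting could have split reads.

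Guanylate-binding proteins and IRG GTPases attack vacuoles of intracellular microbes. Of 15 in the list 6 passed the UMI limit, *Gbp3* among them only through the interferon response cells, with ratios of 5.76 for *Gbp7*, 4.67 for *Gbp3*, 4.20 for *Iigp1*, 3.23 for *Gbp9*, 3.22 for *Gbp6* and 2.74 for *Gbp2*. In MHC class I presentation 6 of 10 were higher, or 5 of 9 without *Psmb8*, which passed the limit in the same way. These were the immunoproteasome subunits *Psmb8* (7.71) and *Psmb10* (3.11), the light chain *B2m* (3.88), *H2-D1* (3.56), *H2-T22* (2.81) and the proteasome activator *Psme2* (2.04). *H2-K1*, *Tapbp*, *Psme1* and *H2-Q7* were within 2-fold at 1.94, 1.95, 1.5 and 1.15.

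**Figure D3:**
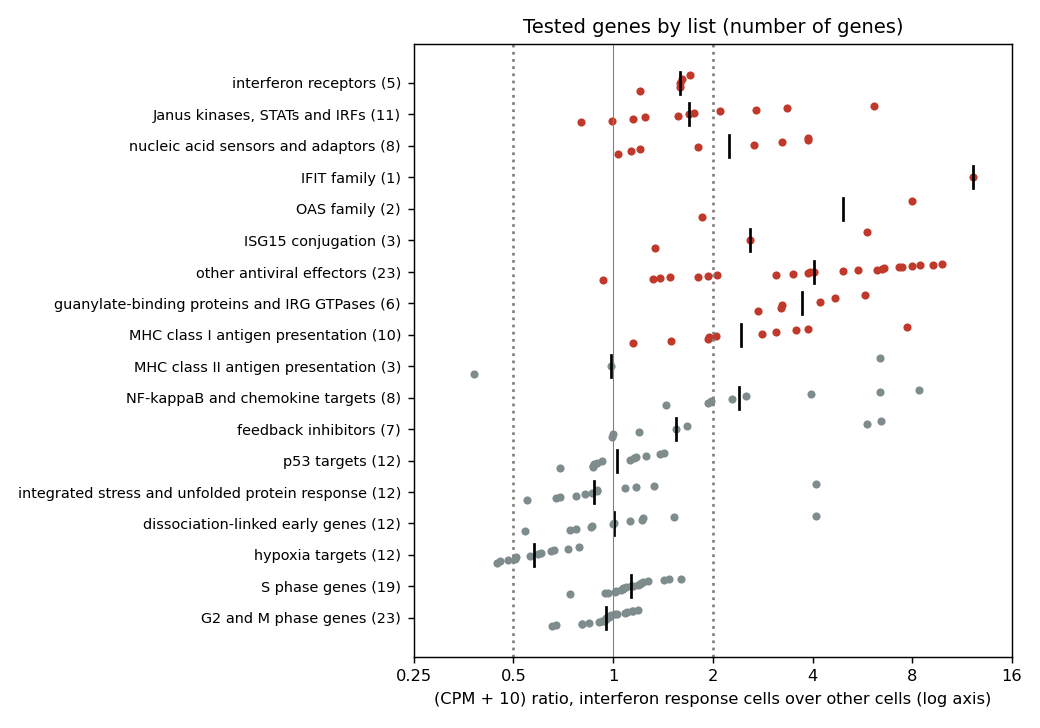
Ratio of CPM plus 10, interferon response cells over other day 11 cells, on a log axis for each tested gene of each list (number of tested genes in brackets; *Ifit3* and *Isg15* left out); black bars are medians and dotted lines mark 2-fold. Red lists are the interferon lists and grey lists the comparison lists; the other antiviral effectors have a median of 4.04 and the hypoxia list one of 0.578.

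Lists next to the interferon pathway were mixed. Of 8 tested NF-kappaB and chemokine targets 5 were higher: *Ccl5* (8.37), *Cxcl10* (6.41), *Ccl2* (3.96), *Icam1* (2.52) and *Nfkbia* (2.29). With the other cells weighted to the class makeup of the interferon response cells, 3 of them stayed higher (*Cxcl10* at 5.78, *Ccl2* at 2.80 and *Ccl5* at 2.23), while *Icam1* came to 1.38 and *Nfkbia* was also within 2-fold. *Cxcl10*, a chemokine that interferon induces, came from 31 of the 104 cells and *Ccl5* from 10. Of 3 tested MHC class II genes 1 was higher, *Cd74* (6.40, in 15 cells, weighted 2.12), which passed the UMI limit only through the interferon response cells, and 1 lower, *H2-Ab1* (0.38, at 13.0 against 50.5 CPM, weighted 0.507). Among feedback inhibitors, *Ptpn6* (6.43, weighted 1.45) and *Usp18* were higher, and *Socs1* and *Socs3* were within 2-fold at 1.67 and 1.55.

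The p53, cell cycle, integrated stress and dissociation lists had medians close to 1, unlike the hypoxia list. None of 12 tested p53 targets was past 2-fold (median ratio 1.02), nor were any of 19 S phase genes (1.14) or 23 genes of G2 and M phases (0.953). In the integrated stress list and in the list of genes that dissociation induces, each with 12 tested genes, 1 was higher, in both cases *Atf3* (4.10, weighted 1.15), with medians of 0.878 and 1.0. *Atf3* had 263 CPM in macrophage-like interferon response cells and 1.45 CPM in mesenchyme-like ones. Of 12 hypoxia targets none was higher and 3 were lower: *Bnip3* (0.45, at 152 against 346 CPM), *Adm* (0.45) and *Ndrg1* (0.48). Weighted by class, only *Adm* stayed lower (0.487), and *Bnip3* and *Ndrg1* came to 0.610 and 0.504. The median of that list was 0.578, and all 12 ratios were below 1.

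Outside all lists, the leading genes were mostly those of macrophages. The 15 with the highest ratios were *Cd52* (21.9), *Rac2* (19.3), *Lst1* (16.9), *Marco* (15.4), *Ifi27l2a* (15), *Fyb* (14.9), *Coro1a* (10.9), *Ms4a6c* (10.2), *Spi1* (10.2), *Ctss* (8.14), *Adgre1* (7.57), *Ltb* (7.42), *C3ar1* (7.38), *Ighm* (7.09) and *Cyth4* (7.04), of which *Adgre1*, *Ltb*, *Ighm* and *Cyth4* passed the UMI limit only through the interferon response cells. All but *Ifi27l2a*, an interferon-induced gene found in 65 cells, were found in 10 to 18 of the 104 cells. For *Cd52*, 1977 of 2036 UMIs came from the 12 macrophage-like cells. The summed level of the 11 macrophage markers was 2754 CPM in the interferon response cells and 170 CPM in the others, and 10 of the 11 were past 2-fold (*Ptprc*, one of them, was under the UMI limit), while *Mrc1* was not (0.97). Of the endothelial markers 5 of 10 were past 2-fold, among them *Tie1* (2.92) and *Emcn* (2.80).

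The 10 genes with the lowest ratios came from muscle, neurons, endoderm and other lineages: *Sln*, *Myl1*, *Sst*, *Pantr1*, *Igfbp2*, *Cartpt*, *Calca*, *Tnnc2*, *Alb* and *Fez1*, at 0.16 to 0.27. *Sln*, an atrial and muscle regulator of the calcium pump, had no UMI in the 104 cells against 52.8 CPM elsewhere, which is at least 44.6-fold lower with a floor of 3 UMIs over the group. Of the 10 cardiomyocyte markers 7 were lower and none was at 0, at a summed 2778 against 7644 CPM. The part of free RNA in these levels was not tested.

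Weighting by class made many of these differences smaller. When the other cells were weighted to the makeup of the interferon response cells, 32 of the 69 interferon list genes were past 2-fold and the genes past 2-fold over all fell from 249 to 62 higher and from 207 to 46 lower. The 9 list genes that came within 2-fold were *Irf8* (0.84), *Aim2* (1.27), *H2-D1* (1.38), *Ifi27* (1.47), *B2m* (1.59), *Slfn2* (1.76), *Psme2* (1.84), *Samhd1* (1.89) and *Stat2* (1.92). *Ifit1* had a weighted ratio of 12.6, *Oasl2* 7.26 and *Usp18* 6.03. Without macrophage-like cells in either group, 35 of 65 tested interferon list genes were higher and none lower, against 154 of 11278 genes higher over all. The UMI limit there was on both groups together.

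Within mesenchyme-like cells, 43 interferon response cells were set against 3644 others. Of 10326 genes with 200 or more UMIs in the class 0.678% were higher and 0.494% lower, and of 59 interferon list genes 31 were higher and none lower (29 of 57 with the limit on the other cells of the class alone). *Ifit1* stood at 242 against 6.15 CPM (ratio 15.6), *Cxcl10* at 262 against 13.2 CPM (11.7), *Oasl2* at 207 against 10.3 CPM (10.7) and *Rtp4* at 153 against 6.04 CPM (10.2). *Ifit1* was present in 34 of the 43 cells and *Cxcl10* in 19, with up to 34 UMIs in 1 cell. Outside the lists, the genes with the highest ratios were *Ifi27l2a* (7.43), *Rnf213* (4.61), *Serpina3g* (4.30), *Colec11* (3.27), *Ppp1r14c* (3.22), *Trim12c* (3.11), *Actr3b* (3.1), *Vamp5* (3.01), *Clca3a1* (2.73) and *Plac8* (2.59). *Actr3b* came from 9 cells, whereas *Trim12c*, a TRIM family gene like *Trim30a*, was found in 30.

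Among the 10 lowest genes outside the lists in this class, 4 are known to respond to low oxygen, a grouping made after their values were seen. The glucose transporter *Slc2a3* gave 2 UMIs against 1497, a CPM ratio of 0.0887 (0.0107 to 0.321), *Ero1l* stood at 44.9 against 153 CPM, *Ndufa4l2* at 60.8 against 171 CPM and *Ddit4* at 55.0 against 150 CPM. The other 6 were *Tac2*, *Tnnt2*, *H19*, *Crabp1*, *Gas2* and *Msmo1*, at ratios of 0.28 to 0.41. In the hypoxia list 3 of 12 tested genes were lower in this class and the median ratio was 0.523, against 0.987 for all genes of the class. *H2-Ab1* gave 1.45 against 35.8 CPM. Genes of the G2 and M phase list had a median ratio of 0.653, with 3 of 23 genes lower.

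Among endothelial-like cells (23 against 478), 1.37% of 6693 genes were higher and 1.67% lower, and of 36 interferon list genes 18 were higher and none lower (17 of 35 with the limit on the other cells alone). *Ifitm3* stood at 1966 against 344 CPM (ratio 5.59) and *Bst2* at 902 against 161 CPM (5.33). Further ratios were 5.61 for *Rtp4*, 4.63 for *Xaf1*, 4.41 for *Lgals9* and 3.44 for *Psmb10*. Under the limit of 200 UMIs, and so not among the 18, *Ifit1* stood at 150 against 4.07 CPM (15 of 23 cells) and *Oasl2* at 133 against 6.52 CPM. Also under it, *Usp18* stood at 101 against 3.43 CPM, *Ifi44* at 109 against 8.06 CPM and *Cxcl10* at 86.3 against 3.01 CPM. *Cxcl10* came from 6 of the 23 cells only, with up to 31 UMIs in 1 cell. The 10 leading genes outside the lists were *Ltbp1*, *Timp2*, *Tmem108*, *Cpe*, *Palmd*, *Slco3a1*, *Col5a2*, *Nr2f2*, *Col23a1* and *Fgd6*, at 2.54 to 2.85. *Nr2f2*, a factor that sets venous identity, stood at 299 against 111 CPM and was found in 22 of the 23 cells.

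Of the genes lower in this class, *Gpihbp1*, a capillary protein that carries lipoprotein lipase, stood at 16 against 308 CPM, a CPM ratio of 0.0519 (0.0249 to 0.0955). *Pgf*, *Esm1* and *Nid2* had no UMI in the 23 cells against 77.5, 61.7 and 51.9 CPM, at least 16.2-fold, 12.9-fold and 10.8-fold lower with a floor of 3 UMIs over the cells. The rest of the lowest 10 were *Nts*, *Ptp4a3*, *Depp1*, *Unc5b*, *Serpinb1a* and *Chst1*, at ratios of 0.10 to 0.24. *Esm1*, *Unc5b* and *Pgf* are genes of sprouting endothelium. Further genes of sprouting and arterial endothelium were looked up after these values had been seen. *Apln* (0 against 20.7 CPM), *Cxcr4* (3.20 against 31.2 CPM), *Sox17* (12.8 against 76.3 CPM), *Hey1* (9.59 against 40.2 CPM) and *Dll4* (11.2 against 36.7 CPM) were lower past 2-fold, while *Efnb2* (55.9 against 63.1 CPM), *Gja4* (118 against 109 CPM) and *Gja5* (1.60 against 6.66 CPM) were not. The venous gene *Ephb4* stood at 40.0 against 30.8 CPM. *Flt4* and *Lyve1* were looked up with these. *Flt4* stood at 35.2 against 58.8 CPM, within 2-fold. *Lyve1* stood at 57.5 against 21.9 CPM (ratio 2.12), from 3 of the 23 cells. Median depth in this class was 16297 against 19228 UMIs.

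In macrophage-like cells few interferon list genes could be tested. In 12 against 56 cells, 1642 genes reached 200 UMIs, of which 1.71% were higher and 2.13% lower, and of 20 interferon list genes only *Ifitm3* (3.12) and *Bst2* (2.54) were higher. At 5000 UMIs the macrophage-like cells outside the rule already had a median of 7 of the 63 genes, against 3 in mesenchyme-like and endothelial-like cells outside the rule, and those inside it a median of 13. Under the limit of 200 UMIs, *Ifit1* stood at 145 against 3.35 CPM (9 of 12 cells) and *Usp18* at 66.2 against 6.71 CPM. *Irf7* stood at 102 against 21.8 CPM (8 of 12 cells). Of the 81 *Ifit1* UMIs 48 came from 1 cell, and of the 57 *Irf7* UMIs 31 came from 1 cell. The median of each was 2 UMIs per cell. *Cxcl10* gave no UMI in the 12 cells. *Irf9* had a ratio of 1.81, within 2-fold.

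**Figure D4:**
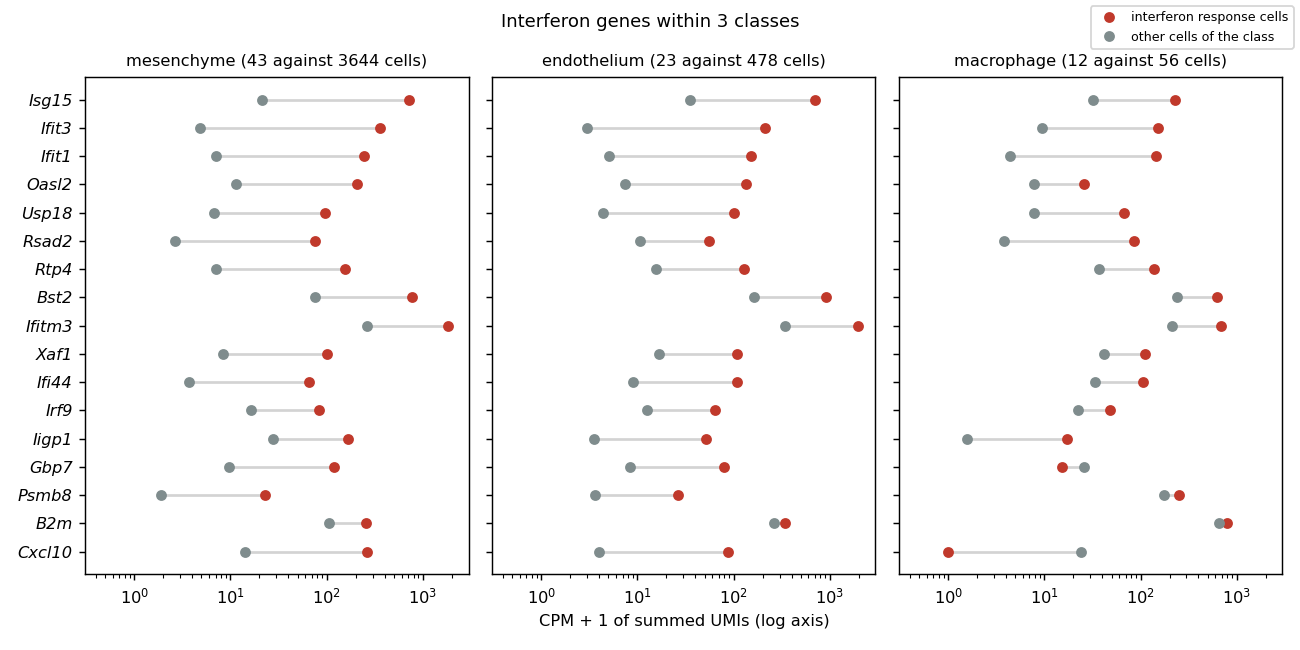
Summed level (CPM plus 1, log axis) of 17 interferon-linked genes in interferon response cells (red) and in other cells (grey) of the mesenchyme-like, endothelial-like and macrophage-like classes. All 17 genes are higher in the interferon response cells of the mesenchyme-like and endothelial-like classes, which the rule fixed in advance for *Ifit3* and *Isg15*. The gap is smaller for *B2m* in the endothelial-like class (342 against 265 CPM). *Cxcl10* came from 19 of 43 mesenchyme-like and 6 of 23 endothelial-like interferon response cells. In macrophage-like cells *Gbp7* and *Cxcl10* are lower.

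Of genes outside the interferon lists in this class, *Spp1* gave 1 UMI against 299 and *Pf4*, a chemokine gene, 28.6 against 369 CPM. *Mrc1*, a marker of tissue-resident macrophages that was part of the class markers, stood at 3.58 against 160 CPM. *Fabp5*, *Lgals3*, *Trf*, *Timp2*, *Syngr1*, *Serpinb6b*, *Pmp22* and *Actc1* were the others of the 10 lowest, at ratios of 0.18 to 0.29. The highest outside the lists were *Ifi27l2a* (4.4), *Fdps*, *Ly6e*, *Cebpd*, *Ly86*, *Ltb*, *Stap1*, *Clec4a2*, *Clec4a1* and *Milr1*, at 2.31 to 3.09. *Ly6e*, *Cebpd*, *Ly86* and *Stap1* were found in all 12 cells and *Ltb* in 9. *Ly6a*, looked up after seeing the data, gave 105 of 108 UMIs in the interferon response cells, but from 2 of the 12 cells. Of other genes looked up then, *Ccr2* stood at 3.58 against 3.91 CPM and *Gpnmb* at 0 against 101 CPM. *Ly6c2* had no UMI in either group.

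The promoter element was counted over all genes with an entry in the table, of which *Isg15*, *Ifit3*, *Ifit1* and *Bst2* above are examples. Of the 41 higher interferon list genes 33 had an entry, and 12 of them (36.4%) held this motif on either strand in the 250 bases before a start. Among the list genes within 2-fold it was 2 of 26 (7.69%), among all tested day 11 genes 260 of 8968 (2.90%) and among all symbols with an entry 936 of 27025 (3.46%). Besides those shown, *Rsad2*, *Stat2*, *Trim30a*, *Lgals9*, *Slfn5*, *Gbp2*, *Gbp3*, *Gbp7*, *H2-T22* and *B2m* held it. *Oasl2*, *Ifitm3*, *Xaf1*, *Ifi44*, *Irf9* and *Ddx58* did not, in these letters and this window. Of the 33 genes, *Rsad2*, *Trim30a*, *Gbp3*, *Slfn2* and *Psmb8* had reached the UMI limit only through the interferon response cells. *Rsad2*, *Trim30a* and *Gbp3* are among the 12 with the motif, so the 36.4% rests in part on them. A match is a description of sequence, and binding was not measured.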

How the data were processed

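Single-cell libraries of Zx1 gastruloids at days 4, 5, 6 and 11 (1 per day, 3′ kit, poly(A) RNA) were analysed. The authors deposited UMI counts per gene and cell, with cells already called and no normalization; the submitters' notes name Cell Ranger 3.1.0 and mm10, and the matrix header of day 11 names 6.0.1. Libraries held 227398362, 236714826, 182150138 and 149169498 UMIs; day 11 is the shallowest per cell, which limits genes with few UMIs.

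From these counts, summed CPM, ratios of CPM plus 10, shares and ratio intervals (exact Clopper-Pearson and conditional binomial, 95%, counting error only) were computed in Python 3.11.15 with numpy 2.4.6, scipy 1.17.1 and pandas 2.3.3. Cells needed 2000 UMIs and a mitochondrial share under 20%. Genes were tested with 500 UMIs over kept day 11 cells, or 200 within a class, and called past 2-fold. Where several classes reached 3 markers, the one with at least 2 times the markers of the next was taken, otherwise the cell was mixed. Thinning used 1 draw with a fixed seed. No clustering was run and no doublets were called. The ratios and their intervals were tested on simulated UMI sums drawn without spread between cells, so only counting error was checked.

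The cells, lists and class markers were chosen with earlier results of these data known. Genes named are the rule genes, the interferon lists, the class markers and the 15 highest and 10 lowest tested genes outside all lists; the 10 highest and lowest per class, and genes said so in the text, were added after seeing the data. With 1 library per day nothing could be compared across replicates. Alternatives were other limits of the rule and of cells, thinning, other class limits, per-cell means, class weighting, another pseudocount, no gene filter and, added after seeing the data, a gene filter on the other cells alone and leaving out macrophage-like cells. *Mb21d1*, *Sting1*, *Oas1b*, *Mx1*, *Mx2* and *Cxcl11* were not found under these symbols in the feature lists, and the symbol *Ddit3* occurs more than once there, of which the first entry was used. Some genes of the lists are not reported here by name.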

Additional observations from a re-analysis of the deposited data

How the results depend on the processing

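Of 99 recomputed main values 78 stayed close to the value given. Of 168 recomputed ratios of named genes 164 stayed past 2-fold in the same direction, but their size could change much. *Cd52*, at 21.9 in the main setting, came to 2.47 with every cell thinned to 5000 UMIs. *Ifit1*, at 12.2, came to 28.7 with a pseudocount of 1 CPM. The rule set the size of the group: 1 UMI of each gene gave 199 cells and 3 UMIs 72, with no cardiomyocyte-like cell (0%). With every cell thinned to 5000 UMIs, 37 cells met the rule. Classes called on the thinned counts gave 10.8% mesenchyme-like, 2.70% macrophage-like, 0% cardiomyocyte-like and 59.5% without a class, as markers drop below 2 UMIs. Of 28 tested interferon list genes 14 were then higher and 1 lower, against 182 higher and 734 lower of 7743 genes over all. A class limit of 4 markers gave 30.8% mesenchyme-like and 28.8% unclassed, and 2 markers gave 3.85% unclassed. Endothelial-like shares stayed between 21.1% and 27.0% under all of these. Of 11362 genes, weighting the other cells by class gave 62 higher and 46 lower, and a pseudocount of 1 CPM gave 438 and 844. With no gene filter 375 of 23119 genes were higher, 69 of them of the interferon lists. Leaving out macrophage-like cells, an alternative chosen after seeing the data, gave 154 higher genes, and leaving out mixed cells too gave 162; in the latter the ratio of *Cd52* turned to 0.993, and the weighting brought *B2m* to 1.59, *Cd52* to 1.76 and *Bnip3* to 0.610. Under the alternatives other than thinning, 32 to 69 genes of the interferon lists were higher and none was lower. The 32 were of 69 tested genes (class weighting). The 69 were of 132 tested genes (no gene filter), a setting that also takes in genes with few UMIs. No paired analysis was possible because each day has 1 library. Counts of few UMIs in classes of 12 to 43 cells limit every within-class value.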
